A study of Homo sapiens with 6 samples.

Results

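The mTOR complexes and the machinery that senses nutrients for them were followed at the level of mRNA in undifferentiated H7 cells, an established human embryonic stem cell (hESC) line, with and without S6 kinase 1 (S6K1). The group holds 43 genes chosen by name out of the 61155 gene symbols of the count table. They cover 10 roles, namely the subunits of the mTOR complexes, the TSC complex with RHEB, the Rag GTPases with Ragulator, GATOR1, GATOR2, KICSTOR, the amino acid and SAM sensors, FLCN with its partners, AMPK with STK11, and the kinases PDPK1 and SGK1. By symbol 42 of the 43 were found, and SAMTOR was found under its older symbol BMT2.

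Bulk RNA sequencing compared 3 libraries of wild-type (WT) H7 hESCs with 3 libraries of S6K1-/- H7 hESCs. According to the methods, RPS6KB1, the gene of S6K1, was targeted by CRISPR with guides to a pair of its exons, and cells of both groups were kept without feeder cells in TeSR-E8 medium, with no treatment described. The labels speak of a knockdown and of week 5, whereas the methods describe a knockout and undifferentiated cells, and the genotype and stage are named here as in the methods. The plasmid for the guides also differs, with a puromycin marker in the labels and GFP in the methods, while both describe sorting for GFP. All S6K1-/- libraries come from 1 clone, clone #1, so that genotype and clone cannot be told apart. Neither labels nor methods say if replicates were cultured separately, and p-values then measure only the spread between these libraries.

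The mTOR kinase works in a pair of complexes. mTORC1, defined by RPTOR, promotes growth and protein synthesis, in part by phosphorylating S6K1, and mTORC2, defined by RICTOR and MAPKAP1, phosphorylates AKT and SGK1. The small GTPase RHEB switches mTORC1 on at the lysosome, and the TSC complex switches RHEB off. Amino acids act through the Rag GTPases, which the Ragulator complex holds at the lysosome and which bring mTORC1 there. GATOR1 inactivates RagA and RagB, KICSTOR anchors GATOR1, and GATOR2 counteracts it. CASTOR1 and CASTOR2 relay arginine, and SAMTOR relays S-adenosylmethionine. FLCN with FNIP1 or FNIP2 acts on RagC and RagD, and AMPK, which STK11 activates when energy is low, restrains mTORC1 through TSC2 and RPTOR. S6K1 is a substrate of mTORC1, and the comparison asks whether its loss is accompanied by a change in the mRNA of these genes.

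None of the 42 members tested passed the threshold of the study, an adjusted p of 0.001, with edgeR's quasi-likelihood test or with DESeq2's Wald test, while 3.96% of the 19521 genes tested did with edgeR and 3.82% of the 20748 genes with an adjusted p did with DESeq2. At an adjusted p under 0.05, PRKAA2 was lower and TSC2 was higher in S6K1-/- cells, which is 2 of 42 members beside 13.8% of all genes with edgeR. With DESeq2 no member was lower at this threshold, beside 4.8% of all genes, and TSC2 was higher, beside 3.82%, in all 1 of 42 members beside 8.62%. In bulk RNA, a change in the share of cells of a type and a change in RNA per cell cannot be told apart. An unadjusted p under 0.05 was reached by 7 of 42 with edgeR, beside 26.4% of all genes, and by 3 of 42 with DESeq2, beside 17.8%. The S6K1-/- and WT libraries did not overlap, in CPM (counts relative to library size, scaled by TMM), for 9 of 42 members, beside 30.7% of all genes. Of these, 4 were lower in S6K1-/- cells, beside 16.7% of all genes, and 5 were higher, beside 14%. Fold changes are given on the log2 scale throughout, with S6K1-/- over WT, so that a positive value is higher in S6K1-/- cells.

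The sequences around a start site of both members past 0.05 are shown because a difference in mRNA was measured for these genes. Which start site these cells use, and the activity of the promoters, was not tested. They come from RefSeq on GRCh38.p14, run from 250 bases before to 50 bases after a start site, and capitals mark the letters CACGTG, an E-box. This motif is shown because the transcription factors TFEB, TFE3 and MITF, which mTORC1 keeps out of the nucleus with the help of FLCN and the Rag GTPases, bind sequences of this kind.

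PRKAA2, chr1:56645064-56645363, plus strand: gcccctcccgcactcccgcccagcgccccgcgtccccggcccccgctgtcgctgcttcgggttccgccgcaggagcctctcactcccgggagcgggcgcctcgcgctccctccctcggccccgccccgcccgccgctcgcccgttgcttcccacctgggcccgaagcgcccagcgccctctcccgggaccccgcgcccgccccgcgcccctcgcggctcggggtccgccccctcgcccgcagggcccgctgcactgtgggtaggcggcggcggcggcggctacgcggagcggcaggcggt

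TSC2, chr16:2047735-2048034, plus strand: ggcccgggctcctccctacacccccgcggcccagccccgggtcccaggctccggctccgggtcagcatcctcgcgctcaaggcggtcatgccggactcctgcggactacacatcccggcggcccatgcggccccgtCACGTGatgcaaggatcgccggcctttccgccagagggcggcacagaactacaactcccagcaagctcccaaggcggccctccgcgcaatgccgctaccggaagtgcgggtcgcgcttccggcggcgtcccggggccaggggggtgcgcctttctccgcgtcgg

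The window of PRKAA2 holds no CACGTG, and G or C makes up 82.7% of it, more than in 99.1% of all promoter windows. That of TSC2 is 73% G or C, more than 86.4% of windows, and its E-box begins 114 bases before the start site. A further TSC2 window in RefSeq, from a start site downstream, holds no CACGTG. The 10 E-boxes in the windows of 7 other members are given with 12 bases on each side, with 3 in that of RRAGB and 2 in that of FNIP1.

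LAMTOR1, chr11:72103445-72103474, minus strand: ctttccccgcatCACGTGcttgcgtgtacg
LAMTOR4, chr7:100148892-100148921, plus strand: agcggctgcaagCACGTGaccggggcctga
RRAGB, chrX:55717622-55717651, plus strand: ctgagccaaggcCACGTGatgatgacagac
RRAGB, chrX:55717712-55717741, plus strand: ggtagcggcagtCACGTGacagactccggg
RRAGB, chrX:55717744-55717773, plus strand: aaggcagatgccCACGTGatcctggcctgc
RRAGC, chr1:38859867-38859896, minus strand: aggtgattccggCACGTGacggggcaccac
NPRL3, chr16:138631-138660, minus strand: cccggagcgtggCACGTGggttggtaactg
FNIP1, chr5:131797175-131797204, minus strand: ccccgcccctgcCACGTGacgggacccgcc
FNIP1, chr5:131797094-131797123, minus strand: tccgcgcgccgcCACGTGatgcggcccccc
PRR5, chr22:44701970-44701999, plus strand: gtttcctgtgggCACGTGgggccctcggaa

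Of the 36 members with a promoter in the RefSeq table, 8 (22.2%) held CACGTG, which reads the same on both strands. Among the 11905 genes tested that have a promoter there, 12.1% held it. By window, these were 8 of 46 windows of members and 7.26% of all 35116 windows. The longer letters TCACGTGA, which contain CACGTG, were found for TSC2 and, at the E-box 25 bases before its start site, for RRAGB, and in 2.03% of the genes tested. The letters TGATGNAA, searched on both strands, were found for TSC2 alone among the members, where they overlap its E-box, and in 2.79% of the genes tested. MLST8, AKT1S1, DEPTOR, RRAGA, RRAGD, WDR24 and CASTOR2 were not covered. The 8 members with CACGTG differed between the groups by -0.08 (PRR5) to 0.15 (TSC2), so the motif was found in members above and below 0. Of the factors themselves, TFE3 had 3440 to 3996 counts in every library, whereas TFEB had 17 to 31 and MITF 12 to 17. The adjusted p of edgeR was 0.793 for TFEB, 0.878 for TFE3 and 0.886 for MITF.

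The plot of levels by library shows how far the members lie apart in these cells. Levels are CPM per kilobase of exonic length. In WT cells they ran from 69.9 ± 3.50 (SD, n = 3) for LAMTOR4, a Ragulator subunit, to 0.221 ± 0.0495 for CASTOR1. LAMTOR5 followed LAMTOR4 with 64.1 ± 5.81, then RHEB with 49.7 ± 1.37, LAMTOR1 with 46.1 ± 3.57 and MAPKAP1 with 42.0 ± 0.525. The WT libraries of LAMTOR4 (66.9 to 73.8) and LAMTOR5 (59.5 to 70.6) overlapped, as did those of RHEB and LAMTOR1, and in both pairs the first gene was higher in each of the 3 libraries. MTOR itself stood at 17.9 ± 1.57 in WT and 18.6 ± 1.07 in S6K1-/- cells. At the low end, above CASTOR1, were SAMTOR with 1.40 ± 0.221, DEPDC5, a GATOR1 subunit, with 1.68 ± 0.0891, and FNIP2 with 2.17 ± 0.0606. CASTOR1 had 8, 10 and 6 counts in WT replicates 1, 2 and 3 and 5, 10 and 4 in the S6K1-/- replicates, and was the only member that failed the filter on low counts. Per kilobase, subunits of 1 complex did not have like levels, since Ragulator spanned 5.38 ± 0.281 (LAMTOR3) to 69.9 and GATOR2 8.61 ± 0.260 (WDR24) to 33.6 ± 0.955 (SEH1L). Such spans depend on the length of 1 transcript per gene, 4163 bases for LAMTOR3 and 594 for LAMTOR4. Before division by length, WT means were 22.4 CPM for LAMTOR3, 19.3 for LAMTOR2 and 41.5 for LAMTOR4. Which transcripts these cells use was not tested. SEH1L is also a subunit of the nuclear pore.

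The plot of changes with their intervals shows how close the groups were. The fold changes of the 42 members lay between -0.27 (PRKAA2) and 0.15 (TSC2), with 24 above and 18 below 0. Their median was 0.02, beside -0.00 over all genes, and the median size of the change regardless of direction was 0.07, beside 0.11. The 95% intervals of the members reached at most from -0.47 to 0.38. For 29 of 42 members (69%) the interval lay within 1.2-fold in either direction, beside 41.7% of all genes. For 42 of 42 (100%) it lay within 1.5-fold, beside 71.2% of all genes. Intervals narrow with counts, and the median level in WT was 38.3 CPM for the members and 12.7 CPM for all genes tested. Exons of 31 of the 43 members overlap another annotated gene, and how reads in such stretches were counted is not given in the sources used here. The members together took 0.177% to 0.178% of the counts of every library.

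**Figure D1:**
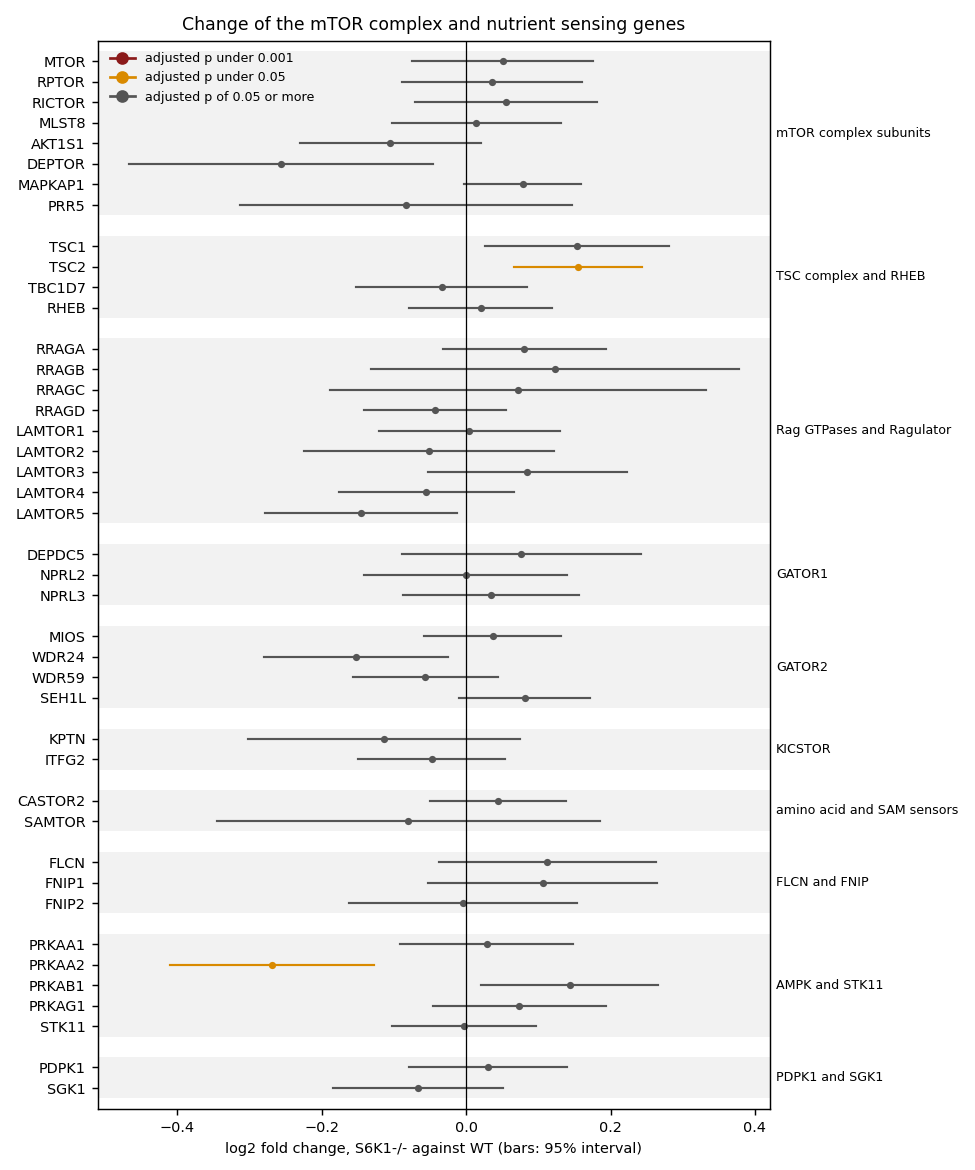
Log2 fold change of S6K1-/- against WT for the 42 members tested, by role, with points for the estimate and bars for its 95% interval from edgeR's fit. PRKAA2 at -0.27 and TSC2 at 0.15 are the members with an adjusted p under 0.05, and none has one under 0.001.

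Among the 8 subunits of the mTOR complexes, 5 were above and 3 below 0, and none passed 0.05. MTOR differed by 0.05 (95% interval -0.07 to 0.18), RPTOR by 0.04 (-0.09 to 0.16), RICTOR by 0.06 (-0.07 to 0.18) and MLST8, which both complexes hold, by 0.01 (-0.10 to 0.13). The lowest value was that of DEPTOR, an inhibitor that binds mTOR in both complexes. DEPTOR had 168, 179 and 149 counts in WT replicates 1, 2 and 3 and 138, 141 and 119 counts in the S6K1-/- replicates. After scaling, every S6K1-/- library lay below every WT library. The difference of -0.26 (SE 0.099, n = 3 per group) had an adjusted p of 0.104 with edgeR. MAPKAP1 (0.08) was likewise free of overlap between the groups, at an adjusted p of 0.208. Exons of RICTOR overlap those of OSMR, a cytokine receptor gene on the opposite strand, over 229 bp. OSMR, named after its values were seen, stood at -0.52 (adjusted p = 0.0161 with edgeR), and its part in the value of RICTOR was not tested. AKT1S1, the inhibitor also called PRAS40, stood at -0.11 and PRR5, an accessory subunit of mTORC2, at -0.08.

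In the TSC complex, TSC2, whose GTPase-activating domain acts on RHEB, was past 0.05. GENCODE places the gene at chr16:2047967-2089491 (GRCh38, plus strand). It had 1779, 1784 and 1677 counts in WT replicates 1, 2 and 3 and 1864, 2011 and 1722 counts in the S6K1-/- replicates. After scaling to library size, the S6K1-/- libraries all lay above the WT libraries, and the WT libraries were nearly alike. TSC2 was higher by 0.15 (SE 0.041, adjusted p = 0.0201 with edgeR). Without WT replicate 3 the adjusted p of edgeR was 0.0603, and without S6K1-/- replicate 2 it was 0.0840. Exons of TSC2 overlap those of PKD1 on the opposite strand over 784 bp. The library kit keeps the strand of the RNA, but whether the counting used it is not given in the sources used here, so reads from this stretch may have been counted for either gene or left out. PKD1 differed by 0.14, at an adjusted p of 0.166 with edgeR.

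TSC1, the partner that stabilises TSC2, was named after its values were seen. It had 1688, 1496 and 1685 counts in the WT and 1865, 1765 and 1571 in the S6K1-/- replicates, and the groups overlapped. The difference of 0.15 (SE 0.059) was as large as that of TSC2, at an adjusted p of 0.108 with edgeR. The adjusted p of edgeR was 0.0261 with no filter on low counts and 0.0487 without WT replicate 3. Without WT replicate 2 the difference was 0.08 at an adjusted p of 0.335 with edgeR, and without S6K1-/- replicate 1 it was 0.11 at 0.353. TBC1D7, the remaining subunit, stood at -0.03 and RHEB at 0.02, with an interval for RHEB of -0.08 to 0.12. Rows of the table named for RHEB pseudogenes held up to 497 counts, in that of RHEBP2, so reads of RHEB may have been divided.

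The 4 Rag GTPases and 5 Ragulator subunits stood at -0.15 to 0.12, with 5 above and 4 below 0, and none passed 0.05. The smallest p belonged to LAMTOR5, with 898, 1076 and 894 counts in the WT and 842, 867 and 776 in the S6K1-/- replicates. The S6K1-/- libraries all lay below the WT libraries after scaling, and WT replicate 2 lay far above the other WT libraries. The difference was -0.15 (SE 0.062, adjusted p = 0.146 with edgeR), and -0.07 without WT replicate 2 (adjusted p = 0.504). LAMTOR5-AS1, which overlaps it on the opposite strand over 418 bp, differed by -0.08 at an adjusted p of 0.725 with edgeR. RRAGA (0.08) was also free of overlap between the groups, at an adjusted p of 0.370 with edgeR. RRAGB and RRAGC, at 114 to 152 and 141 to 212 counts, had the widest intervals in this role, -0.13 to 0.38 and -0.19 to 0.33.

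The 3 subunits of GATOR1 stood at -0.00 to 0.08, none past 0.05. DEPDC5 had 276, 279 and 240 counts in the WT and 277, 286 and 241 in the S6K1-/- replicates, and the groups overlapped after scaling. Its difference was 0.08 (SE 0.078, adjusted p = 0.589 with edgeR), 0.04 without WT replicate 3 and 0.12 without S6K1-/- replicate 3. A coding gene on the same strand shares 1809 bp of exons with DEPDC5. NPRL2 stood at -0.00 with an interval of -0.14 to 0.14, and NPRL3 at 0.03.

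Of the 4 subunits of GATOR2, WDR24 had the smallest p. It had 699, 689 and 628 counts in the WT and 600, 623 and 517 in the S6K1-/- replicates. Every S6K1-/- library was lower than every WT library after scaling. The difference was -0.15 (SE 0.059, adjusted p = 0.109 with edgeR). SEH1L (0.08, adjusted p = 0.245 with edgeR) was free of overlap in the other direction. MIOS stood at 0.04 and WDR59 at -0.06.

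Both KICSTOR members stood below 0, neither past 0.05. KPTN had 245, 256 and 208 counts in the WT and 207, 231 and 190 in the S6K1-/- replicates, with overlap after scaling. Its difference was -0.11 (SE 0.088, adjusted p = 0.458 with edgeR), and -0.07 without WT replicate 2. ITFG2 stood at -0.05, and its exons overlap those of FOXM1 on the opposite strand over 782 bp.

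Of the sensors, CASTOR2 had 1174, 1233 and 1126 counts in the WT and 1194, 1198 and 1100 in the S6K1-/- replicates. The groups overlapped after scaling, and the difference was 0.04 (SE 0.044, adjusted p = 0.583 with edgeR). The near-identical copy CASTOR3 has a row of its own, with 490, 470 and 447 counts in the WT and 575, 577 and 500 in the S6K1-/- replicates. CASTOR3, named after its values were seen, was higher by 0.29 (SE 0.061, adjusted p = 0.00426 with edgeR), with every S6K1-/- library above every WT library. The division of reads between these copies is uncertain, and its part in the value of CASTOR2 was not tested. Exons of CASTOR2 also overlap those of RCC1L on the opposite strand over 958 bp, and RCC1L stood at -0.13, at an adjusted p of 0.111 with edgeR. SAMTOR, with 110 to 148 counts, stood at -0.08 with an interval of -0.35 to 0.18. With 4 to 10 counts per library, no difference in CASTOR1 could be assessed at this depth, and a coding gene on the same strand shares 1262 bp of its exons.

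FLCN had 389, 371 and 364 counts in the WT and 393, 377 and 394 in the S6K1-/- replicates. The S6K1-/- libraries reached higher after scaling, but 1 of them lay within the WT libraries. The difference of FLCN was 0.11 (SE 0.071, adjusted p = 0.343 with edgeR), and 0.07 without S6K1-/- replicate 3. A coding gene on the same strand shares 1161 bp of exons with FLCN. FNIP1 stood at 0.11 and FNIP2 at -0.00, neither past 0.05.

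AMPK held the member with the smallest p of all. PRKAA2 encodes the α2 catalytic subunit, and GENCODE places it at chr1:56645314-56715335 (GRCh38, plus strand). It had 581, 520 and 557 counts in WT replicates 1, 2 and 3 and 447, 456 and 417 counts in the S6K1-/- replicates. The S6K1-/- libraries lay close together and all below the WT libraries, of which WT replicate 2 was lowest. PRKAA2 fell by 0.27 on the log2 scale (SE 0.066, adjusted p = 0.0127 with edgeR). The adjusted p was 0.0533 with DESeq2's Wald test, and with edgeR 0.0613 without WT replicate 1 and 0.0671 without WT replicate 3. PRKAA1, the α1 subunit that can take its place in the complex, stood at 0.03 with an interval of -0.09 to 0.15. PRKAB1, the β1 subunit, had 541, 565 and 548 counts in the WT and 597, 602 and 553 in the S6K1-/- replicates, and was named after its values were seen. The S6K1-/- libraries all lay above the WT libraries. The difference of PRKAB1 was 0.14 (SE 0.057, adjusted p = 0.119 with edgeR). PRKAG1, the γ1 subunit, of which 2061 bp of exons are shared with a coding gene on the same strand, stood at 0.07 and STK11, the kinase that activates AMPK, at -0.00 with an interval of -0.10 to 0.10.

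PDPK1, which phosphorylates the activation loop of AKT, S6K1 and SGK1, stood at 0.03. SGK1, a kinase downstream of mTORC2, had 709, 758 and 722 counts in the WT and 671, 706 and 628 in the S6K1-/- replicates, and the groups overlapped after scaling. Its difference was -0.07 (SE 0.055, adjusted p = 0.492 with edgeR), and -0.04 without WT replicate 3.

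**Figure D2:**
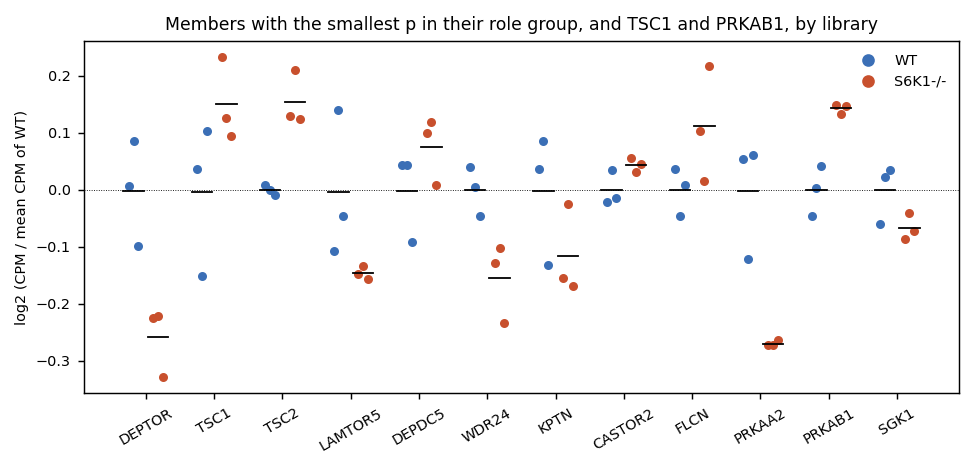
CPM of each library relative to the WT mean of that gene, on the log2 scale, for the members named by rule, TSC1 and PRKAB1, with blue points for WT, orange points for S6K1-/- and a line for the mean of 3 libraries. PRKAA2 lies near -0.27 in every S6K1-/- library, and TSC2 is above its WT libraries in every S6K1-/- library.

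Several members have a paralog that can fill the same place in a complex, and the plot of paralog shares sets these side by side per kilobase of exonic length. These shares are given as descriptions with no test. With 3 libraries against 3, an exact permutation test of 1 value gives a p of at least 0.1. In WT cells RRAGB made up 11.6% ± 1.53 (SD, n = 3) of the level of RRAGA and RRAGB, whereas RRAGD made up 77.2% ± 2.23 of RRAGC and RRAGD. FNIP2 made up 35.8% ± 1.98 of FNIP1 and FNIP2, and CASTOR2 made up 96.5% ± 0.700 of CASTOR1 and CASTOR2. The share of CASTOR2 is uncertain beyond its SD. CASTOR1 had 4 to 10 counts per library and shares 1262 bp of exons with a coding gene on the same strand. Reads of CASTOR2 may have been divided with CASTOR3. In each of these pairs of paralogs the S6K1-/- libraries overlapped the WT libraries. Exons of RRAGC share 1183 bp with a noncoding gene on the same strand, and reads there may not have been counted for RRAGC. Bowtie2 does not align reads across splice junctions, which RRAGB has, whereas the span of RRAGA equals its exonic length of 1599 bp. The part of both in these shares was not tested.

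PRKAA2 made up 26.7%, 23.7% and 27.3% of both α subunits in the WT and 21.4%, 21.7% and 23.4% in the S6K1-/- replicates. PRKAB2 made up 55.2% to 56.2% of both β subunits in the WT and 52.5% to 53.2% in the S6K1-/- libraries. PRKAG2 made up 22.7% to 25.2% of the level of PRKAG1 and PRKAG2 in the WT and 21.2% to 21.9% in the S6K1-/- libraries. These shares did not overlap between the groups, as was the case for 30.7% of single genes in CPM, and no such background was computed for shares. PRKAB2 and PRKAG2 themselves stood at -0.01 and -0.09, at an adjusted p of 0.924 and 0.453 with edgeR.

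**Figure D3:**
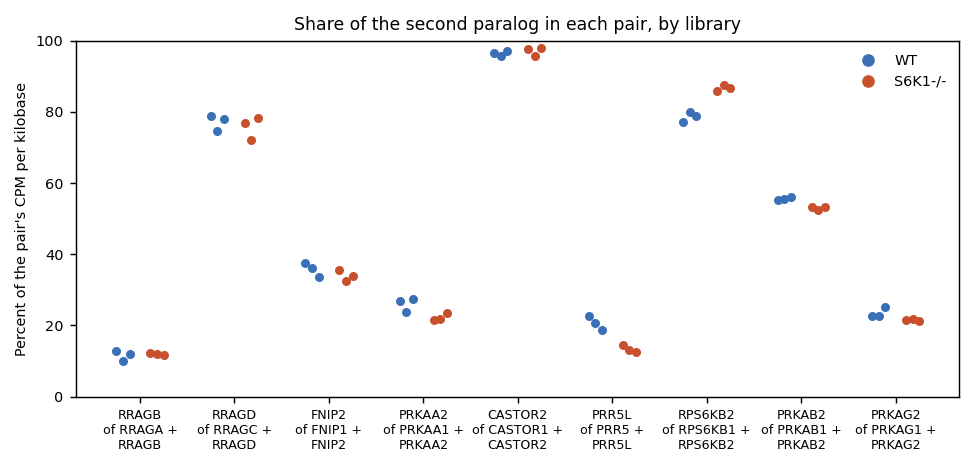
Share of the second paralog in the summed level per kilobase of each of 9 pairs, in percent, with blue points for the 3 WT and orange points for the 3 S6K1-/- libraries. The groups are separate for PRKAA2, PRKAB2, PRKAG2, PRR5L and RPS6KB2, and overlap for the 4 other pairs.

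A further 41 genes come from the rest of the pathway, namely 24 other upstream regulators and 17 S6 kinases and other effectors. With edgeR, 1 of these 41 was lower and 0 were higher at an adjusted p under 0.001, beside 2.54% lower and 1.42% higher of all genes, and with DESeq2's Wald test 1 was lower and 1 higher, beside 2.25% and 1.57%. At 0.05 these were 2 lower and 2 higher with edgeR, beside 8.31% and 5.47%, and 10 of 41 had an unadjusted p under 0.05, beside 26.4%. The median change of the 41 was 0.01.

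RPS6KB1, the targeted gene, had 831, 791 and 777 counts in WT replicates 1, 2 and 3 and 464, 464 and 438 in the S6K1-/- replicates. All S6K1-/- libraries lay far below the WT libraries, and the transcript was still counted in each of them. It fell by 0.75 on the log2 scale (SE 0.057, adjusted p = 2.52e-07 with edgeR). RPS6KB2, the gene of the paralog S6K2, had 891, 1016 and 931 counts in the WT and 905, 1035 and 908 in the S6K1-/- replicates. The difference of RPS6KB2 was 0.07 (SE 0.060, adjusted p = 0.540 with edgeR), and the groups overlapped. Leaving out WT replicate 1 gave 0.02, and leaving out S6K1-/- replicate 1 gave 0.11, the ends of the range over single libraries left out. Per kilobase, RPS6KB2 made up 78.7% ± 1.53 of both S6 kinases in WT and 86.7% ± 0.773 in S6K1-/- cells.

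AKT1, of the kinases that act upstream of mTORC1 by phosphorylating TSC2 and AKT1S1, had 3280, 3312 and 2956 counts in the WT and 3539, 3764 and 3278 in the S6K1-/- replicates, without overlap after scaling. It was higher by 0.21 (SE 0.041, adjusted p = 0.00253 with edgeR). AKT2 stood at 0.12, at an adjusted p of 0.0862 with edgeR. Per kilobase, the AKT1 level was 44.7 in WT and 51.7 in S6K1-/- cells.

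PRR5L, a paralog of PRR5 that also binds mTORC2, had 77, 80 and 68 counts in the WT and 48, 39 and 35 in the S6K1-/- replicates. The groups did not overlap, and PRR5L fell by 0.82 on the log2 scale (SE 0.158, adjusted p = 0.00242 with edgeR). It made up 20.6% ± 1.98 of the level of PRR5 and PRR5L in WT and 13.4% ± 1.08 in S6K1-/- cells.

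GRB10, an adaptor that restrains insulin receptor signalling and is phosphorylated by mTORC1, had 2978, 3022 and 2954 counts in the WT and 3319, 3145 and 2978 in the S6K1-/- replicates. Its S6K1-/- libraries all lay above the WT libraries after scaling. GRB10 was higher by 0.14 (SE 0.041, adjusted p = 0.0376 with edgeR). Left out one at a time, WT replicates 1 and 2 and S6K1-/- replicates 1 and 3 each took it past 0.05, to 0.0987, 0.0617, 0.179 and 0.0716 with edgeR.

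The other 36 of the 41 genes did not pass 0.05. Of the genes of amino acid sensing among them, the sestrin genes SESN1, SESN2 and SESN3, whose proteins bind GATOR2, stood at -0.15, 0.13 and -0.12, and the lysosomal arginine sensor SLC38A9 at -0.14. The KICSTOR subunit KICS2 stood at -0.17. Of the substrates, the translation repressor EIF4EBP1 stood at 0.04, ribosomal protein gene RPS6 at -0.01 and the autophagy kinase gene ULK1 at 0.11.

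**Figure D4:**
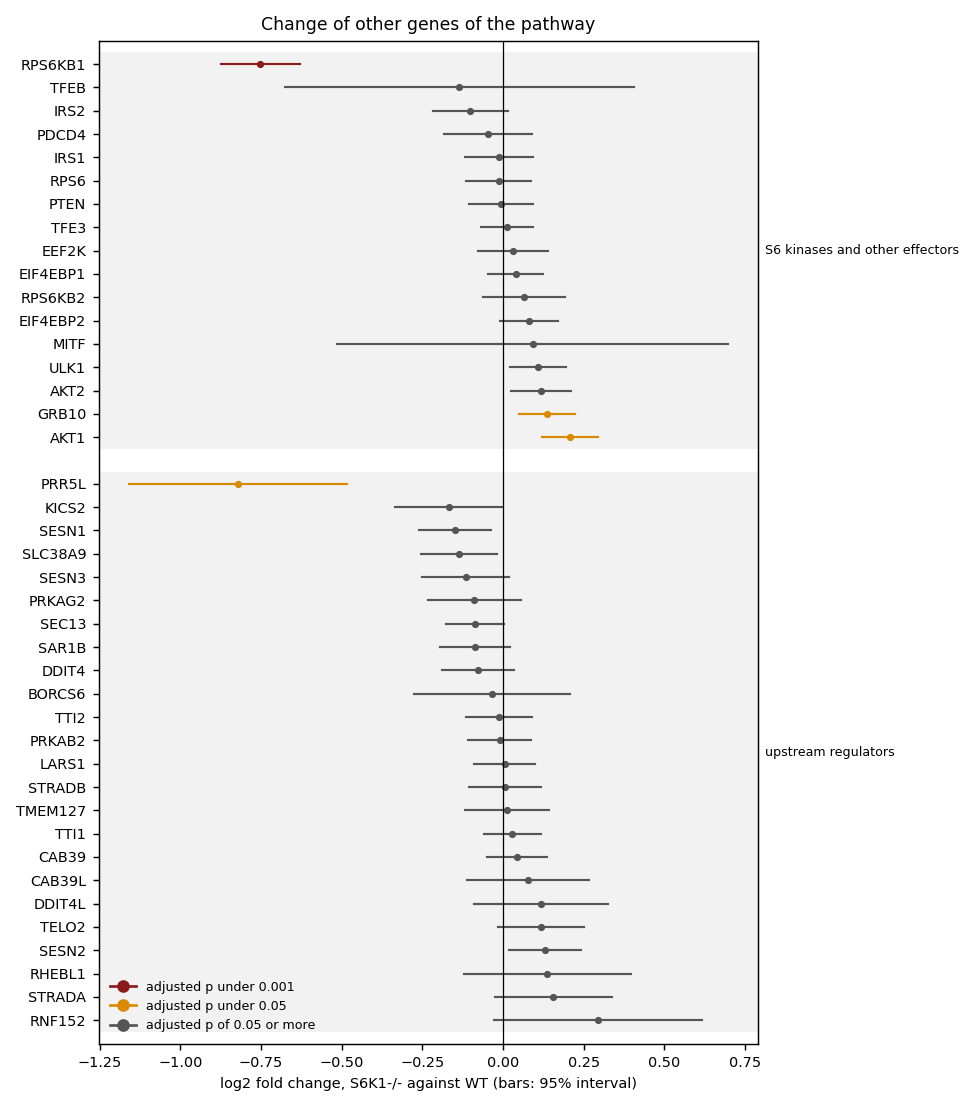
Log2 fold change of S6K1-/- against WT for 41 other genes of the pathway, with points for the estimate and bars for its 95% interval from edgeR's fit. RPS6KB1 at -0.75 has an adjusted p under 0.001, and PRR5L at -0.82, GRB10 at 0.14 and AKT1 at 0.21 one under 0.05.

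Library totals ran from 21896698 to 24473013 counts. All 10 markers of undifferentiated hESCs were present in every library, and their summed level was 7505 to 7681 CPM in WT and 7000 to 7092 CPM in S6K1-/- cells. Within that list DNMT3B, a DNA methyltransferase gene, had an adjusted p under 0.001 with edgeR, at -0.35, and SALL4 and TDGF1 had one under 0.05, at -0.17 and -0.15. The 6 markers of mesendoderm and endoderm summed to 16.5 to 20.5 CPM in WT and 16.7 to 17.5 CPM in S6K1-/- cells, with SOX17 at 0 to 1 counts. The 4 of neuroectoderm summed to 4.44 to 5.30 and 7.58 to 8.91 CPM, and the 4 of trophoblast and amnion to 4.91 to 6.67 and 3.17 to 3.76 CPM, with HAND1 at 0 in all libraries. The 4 of mesenchyme summed to 476 to 500 CPM in WT and 472 to 492 CPM in S6K1-/- cells, nearly all of it from THY1, which hESCs also express. Of the markers of other cell types, PAX6 (0.76) had an adjusted p under 0.001, and SOX1 (1.29), MIXL1 (0.24), FOXA2 (-0.88) and KRT7 (-0.82) had one under 0.05 with edgeR, each at no more than 317 counts in a library. Their part in the changes of PRKAA2 and TSC2 was not tested.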

How the data were processed

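The authors trimmed paired reads of poly(A)-selected RNA with Trim Galore 0.6.5, aligned them to GRCh38 with Bowtie2 2.4.5, which does not align across splice junctions, and deposited whole-number counts per gene symbol from featureCounts, not normalized. Libraries were made with a stranded kit, and the strand setting of the counting and the annotation release are not given in the sources used here. A further deposited table holds only the authors' own comparison made with DESeq2 1.37.4 (mean, log2 fold change, standard error, statistic, p-values and call), and was not used.

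Of 61155 symbols, 19521 passed the filter on low counts of edgeR (filterByExpr). Groups were taken from the sample titles, 3 libraries each, and compared with edgeR's quasi-likelihood test (edgeR 4.0.16, R 4.3.3) after TMM normalization, with genotype as the sole term. Benjamini-Hochberg adjustment was made over all genes tested, with the study's threshold of 0.001 and a second one of 0.05. Each standard error is the size of the log2 fold change divided by the square root of F, and 95% intervals from the t distribution with the degrees of freedom of the fit. Levels are CPM on TMM-scaled library sizes, divided by the exonic length of the MANE Select transcript in GENCODE. The steps were tested on simulated counts with changes larger than that of any member, so changes of the size seen in members were not covered. DESeq2 1.42.0 was used for the alternatives.

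The members and lists were chosen with earlier results of these data known. Counts per library are given for members with an adjusted p under 0.05, otherwise for the member of a role with the smallest p, for other pathway genes under 0.05, and for RPS6KB1 and RPS6KB2. Values of other genes named by their role are estimates without counts per library, and genes named after their values were seen are marked as such. A further 2 pathway genes are not reported here, and counts of other pathway genes cover the remaining 41. Replicates were compared by a chi-square of their counts, which was 2.22 to 4.45 per degree of freedom, so no library was a copy of another.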

Additional observations from a re-analysis of the deposited data

How the results depend on the processing

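No member passed an adjusted p of 0.001 under any of the 11 alternatives, and at the threshold of 0.05, 1 was lower and 1 higher. The signs of 35 to 42 of 42 members stayed, fewest without WT replicate 2. Of all genes, 496 lower and 278 higher became 982 and 591 with no filter on low counts, 1622 and 1067 at 0.05, and 939 and 534 at 0.01, and with a library left out 313 to 445 lower and 175 to 235 higher, fewest without S6K1-/- replicate 3 (lower) and 1 (higher). Each left-out library leaves 2 against 3. Among members at 0.05, the count lower was 0 with DESeq2's Wald test and 0 to 1 with a library left out, 0 without WT replicates 1 and 3, where PRKAA2 was lost. The count higher was 2 with no filter, where TSC1 joined TSC2, and 0 to 1 with a library left out, 0 without S6K1-/- replicate 2. Without WT replicate 3 that count was TSC1 and not TSC2. Among other pathway genes at 0.001, the count lower was 2 with no filter, at 0.05 and at 0.01, where PRR5L joined RPS6KB1, and the count higher, 0 as reported, was 1 with DESeq2's Wald test, with no filter and at 0.01, in each case AKT1, and 2 at 0.05. At 0.05 their count higher, 2 as reported, was 1 to 2 with a library left out, and 1 without WT replicate 1 and S6K1-/- replicates 1 and 3, where GRB10 was lost. Without WT replicate 2 GRB10 was lost too, and ULK1 took its place. The cause of these moves was not tested, other than the looser thresholds themselves.

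With the replicate number as a block, 423 genes were lower and 241 higher, and no call of a member changed. The correlations of the deviations of same-numbered libraries were 0.02, 0.00 and 0.03, so the numbers do not pair the libraries. Members of low count, such as SAMTOR, RRAGB and RRAGC, have the widest intervals, and CASTOR1 could not be assessed.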
